A study of Rattus norvegicus with 24 samples.

Results

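A set of 8 interferon-induced genes was followed in the CA1 field of the rat hippocampus: Stat2, Irf9, Irf1, Ifitm3, Ifitm2, Ifi27, Bst2 and Gbp2. Every probe set that the array's annotation assigns to exactly 1 of these symbols was taken, which gave 10 probe sets of 31099 and 8 genes of the 14218 that have such a probe set. Total RNA of male Long-Evans rats had been hybridised to Affymetrix Rat Genome 230 2.0 arrays, with 1 array per rat. Rats had been trained to find a hidden platform in a Morris water maze, and the aged ones were 24 to 26 months old. A learning index placed 8 of them outside the range of the young rats (impaired) and 6 of them within it (unimpaired), and 9 rats were young, at 6 months. No rat received a treatment, and health and freedom from pathogens were monitored in all of them, per the labels. Young replicate 9 has its column among those of the unimpaired arrays, whose numbers skip 6, and was kept as young by its title. A further unimpaired array held no values and was not used. Values are log2 signals after GCRMA, a background correction and summary of the probes of a probe set.

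Interferons are cytokines that cells release on sensing viral or other foreign nucleic acid. Type I interferons bind the receptor chains Ifnar1 and Ifnar2, whose kinases Jak1 and Tyk2 phosphorylate STAT proteins, and Stat2 joins Irf9 in a complex that binds interferon-stimulated response elements in promoters. Interferon gamma acts through STAT dimers, which bind gamma-activated sites and induce Irf1. Among the induced products, IFITM proteins hinder the fusion of enveloped viruses in human and mouse cells, BST2 tethers budding virions, guanylate-binding proteins attack intracellular pathogens, and IFI27 is a small mitochondrial protein in human cells. In brain, microglia, astrocytes, endothelium and neurons can all respond to interferon.

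The promoters show which of these elements the genes carry, and are printed because the genes were grouped by their response to interferon and not by sequence. RefSeq promoter windows of the rat build GRCr8, each from 250 bases before to 50 bases after a gene's start, were found for 8 of 8 genes. Both strands were searched for the core of the interferon-stimulated response element, GAAANNGAAA, and for the gamma-activated site, TTCNNNGAA, whose letters read the same on both strands. The response element core was found in 5 of 8 windows, against 3.77% of all 27457 windows, and the gamma-activated site in 4 of 8, against 8.68%. The matches read, 5′ to 3′ on the gene's strand with 20 bases on each side and the motif in capitals.
Ifitm3, response element core: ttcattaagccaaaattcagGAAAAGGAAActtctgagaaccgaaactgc
Ifitm2, response element core: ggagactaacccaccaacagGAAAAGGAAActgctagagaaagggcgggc
Ifi27, response element core, farther match: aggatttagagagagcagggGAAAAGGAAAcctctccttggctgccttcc
Ifi27, response element core, nearer match: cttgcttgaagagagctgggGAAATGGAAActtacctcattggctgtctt
Bst2, response element core: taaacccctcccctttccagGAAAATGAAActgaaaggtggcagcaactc
Gbp2, response element core on the other strand: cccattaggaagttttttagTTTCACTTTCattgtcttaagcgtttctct
Irf1, gamma-activated site: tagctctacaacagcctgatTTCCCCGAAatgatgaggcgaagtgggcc
Irf9, gamma-activated site: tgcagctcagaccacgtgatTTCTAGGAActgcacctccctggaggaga
The Ifitm3 stretch (chr1:205541773-205541822, minus strand) starts its motif 44 bases before the gene, and the Ifitm2 stretch (chr1:205482352-205482401, minus strand) 33 bases before it. These genes are close paralogs that lie in the same stretch of chromosome 1, and their motif has the same 10 letters, GAAAAGGAAA, which also stand in the farther Ifi27 match (chr6:128355123-128355172, plus strand). The nearer Ifi27 match is at chr6:128355208-128355257. The Bst2 stretch is at chr16:18255069-18255118 on the minus strand, with a second core that overlaps the first and a gamma-activated site that overlaps it too. The Gbp2 stretch lies at chr2:234005676-234005725, the Irf1 site at chr10:38417773-38417821 and the Irf9 site at chr15:33065717-33065765, all on the plus strand. Ifitm3 also held a gamma-activated site, 33 bases before its start and next to its response element core. The Stat2 window (chr7:1286840-1287139) held neither motif. For Stat2 and Irf9 the annotated start used here is not the outermost edge of the gene in the gene table, so other starts were not searched. A match is a run of letters and not a measured binding site.

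In aged rats Ifitm3 rose, and of the 5 genes bright enough to test it alone passed, in 2 of the 4 comparisons made here. Ifi27 had the same size of difference with a wider spread between rats and did not pass. Stat2 and Irf9 had smaller differences above 0, Ifitm2 had a small difference below 0, and none of these passed. Irf1, Bst2 and Gbp2 were too dim for the main fit. Between impaired and unimpaired rats the difference of each tested gene lay within its SE. The genes were fitted with all others in limma (moderated tests of 3 group means over 9076 genes that exceeded a log2 signal of 4 on 6 or more of the 23 arrays, Benjamini-Hochberg adjustment, called at an adjusted p under 0.05). That fit called 3.71% of all genes between aged and young rats (3.09% higher and 0.628% lower), and 1 of the 5 tested members, Ifitm3.

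**Figure D1:**
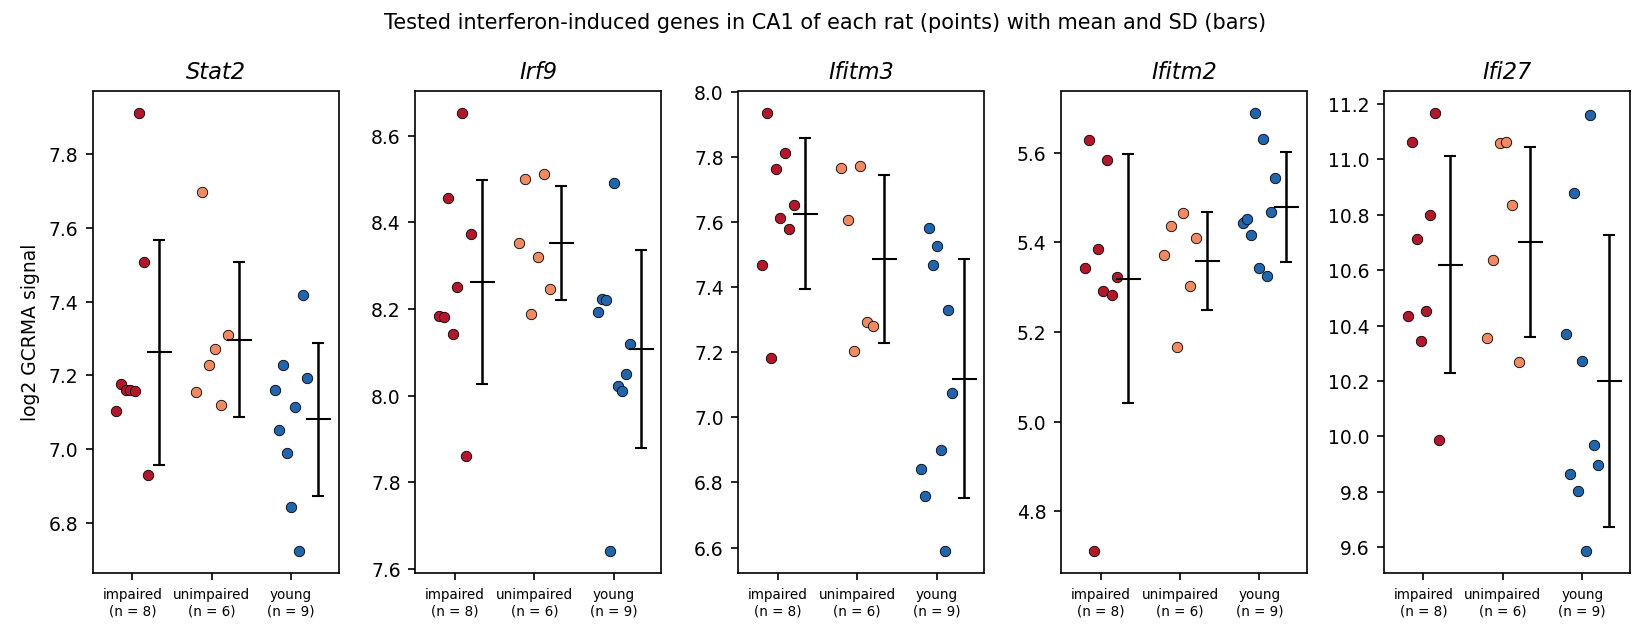
Log2 GCRMA signal (vertical axis, a separate scale for each gene) in CA1 of each rat for the 5 tested genes, by group on the horizontal axis. Points are rats and the bars beside them are the group mean and SD. For Ifitm3 and Ifi27 all 14 aged rats lie above the median of the 9 young rats, while some young rats lie as high as the aged ones.

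The transcription factors come first. Stat2, the activating subunit of the type I interferon complex, had its brighter probe set (1389571_at) at 6.93, 7.16 and 7.91 in impaired rats (lowest, median and highest of 8). In unimpaired rats it was at 7.12, 7.25 and 7.70 (of 6), and in young rats at 6.72, 7.12 and 7.42 (of 9). The groups overlapped, 12 of 14 aged rats lay above the young median, and the highest levels were those of 3 aged rats, impaired replicates 6 and 7 at 7.91 and 7.51 and unimpaired replicate 2 at 7.70. The aged minus young difference was 0.20 ± 0.10 (SE; limma adjusted p = 0.358), and the impaired minus unimpaired difference was -0.03 ± 0.13 (95% interval -0.295 to 0.227). The second Stat2 probe set (1373670_at) was nearly flat, with means of 6.02 ± 0.03 in impaired, 6.08 ± 0.12 in unimpaired and 6.03 ± 0.06 in young rats (SD, n = 8, 6 and 9). Its highest array was unimpaired replicate 2, at 6.32, and over all arrays its correlation with the first probe set was 0.309 after group means were removed, so the probe sets of Stat2 did not track each other closely.

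Irf9 is the subunit of the same complex that recognises the response element. Its brighter probe set (1383448_at) was at 7.86, 8.22 and 8.65 in impaired rats (lowest, median, highest), at 8.19, 8.34 and 8.51 in unimpaired rats and at 7.64, 8.12 and 8.49 in young rats. Of 14 aged rats 13 lay above the young median, yet the ranges overlapped widely. The aged minus young difference was 0.19 ± 0.09 (limma adjusted p = 0.271). The unimpaired minus young difference was 0.25 ± 0.11 (adjusted p = 0.417) and the impaired minus young difference 0.15 ± 0.10 (adjusted p = 0.468). The second Irf9 probe set (1374627_at) gave 6.04 ± 0.14 in impaired, 6.20 ± 0.39 in unimpaired and 5.84 ± 0.21 in young rats (SD), with 5 of 6 unimpaired rats above every young rat. Tested on its own among 12193 probe sets, its aged minus young difference was 0.26 ± 0.10 (adjusted p = 0.218). The probe sets of Irf9 thus had the same sign and a correlation of 0.494 over the 23 arrays.

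Irf1, the factor induced by interferon gamma, was over a log2 signal of 4 on 0 of 23 arrays. Its means were 3.54 ± 0.06 in impaired, 3.57 ± 0.06 in unimpaired and 3.58 ± 0.08 in young rats (SD). It was not tested in the main fit, nor were Bst2 and Gbp2, which were also over 4 on 0 of 23 arrays. In the fit without the filter on dim genes, 0 members were called in each of the 4 comparisons. Bst2 read 2.13 ± 0.01, 2.12 ± 0.01 and 2.14 ± 0.01 in impaired, unimpaired and young rats. Gbp2 read 3.52 ± 0.13, 3.42 ± 0.04 and 3.45 ± 0.09, with its highest single arrays at 3.83 in impaired replicate 2 and 3.70 in young replicate 5. For these 3 genes the data hold levels near background and no measure of change.

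Among the effectors, Ifitm3 encodes a membrane protein that blocks viral entry from endosomes in human and mouse cells. Its log2 signal was 7.18, 7.63 and 7.93 in impaired rats (lowest, median, highest), 7.20, 7.45 and 7.77 in unimpaired rats and 6.59, 7.08 and 7.58 in young rats. Of 14 aged rats, 8 lay above every young rat (5 impaired and 3 unimpaired), and 5 of 9 young rats lay below every aged rat. The remaining 4 young rats, at 7.33 to 7.58, lay within the aged range. The means were 7.62 ± 0.23 in impaired, 7.49 ± 0.26 in unimpaired and 7.12 ± 0.37 in young rats (SD).

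The aged minus young difference of Ifitm3 was 0.45 ± 0.12, a 1.36-fold rise (95% interval 1.15 to 1.62; limma adjusted p = 0.0373), and it ranked 276 by p among the 9076 genes. Impaired rats exceeded young rats by 0.51 ± 0.14, or 1.42-fold (adjusted p = 0.0382), in a comparison that called 3.8% of all genes and 1 of 5 tested members. Unimpaired rats exceeded young rats by 0.37 ± 0.15, or 1.29-fold (adjusted p = 0.365), in a comparison that called 0.76% of all genes and 0 of 5 members. Impaired and unimpaired rats differed by 0.14 ± 0.15 (95% interval -0.176 to 0.452; adjusted p = 0.895). There 0% of all genes were called by limma, 6.93% had an unadjusted p under 0.05, and no member did. The 3 comparisons with young rats share the same young arrays. Ifitm3's age call sat close to the threshold and was lost in 12 of 23 fits that each left out 1 array, with adjusted p between 0.0192 and 0.0891. These arrays were impaired replicates 2, 4, 5, 6 and 7, unimpaired replicates 2 and 4, and young replicates 1, 2, 6, 7 and 9. The difference itself stayed between 0.38 and 0.50 in these fits. The impaired minus young call was lost in 10 of 23 such fits (adjusted p between 0.0195 and 0.0820), those without the impaired and young arrays just named. Without the filter on dim genes the adjusted p was 0.0677 for aged and 0.0692 for impaired against young rats.

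**Figure D2:**
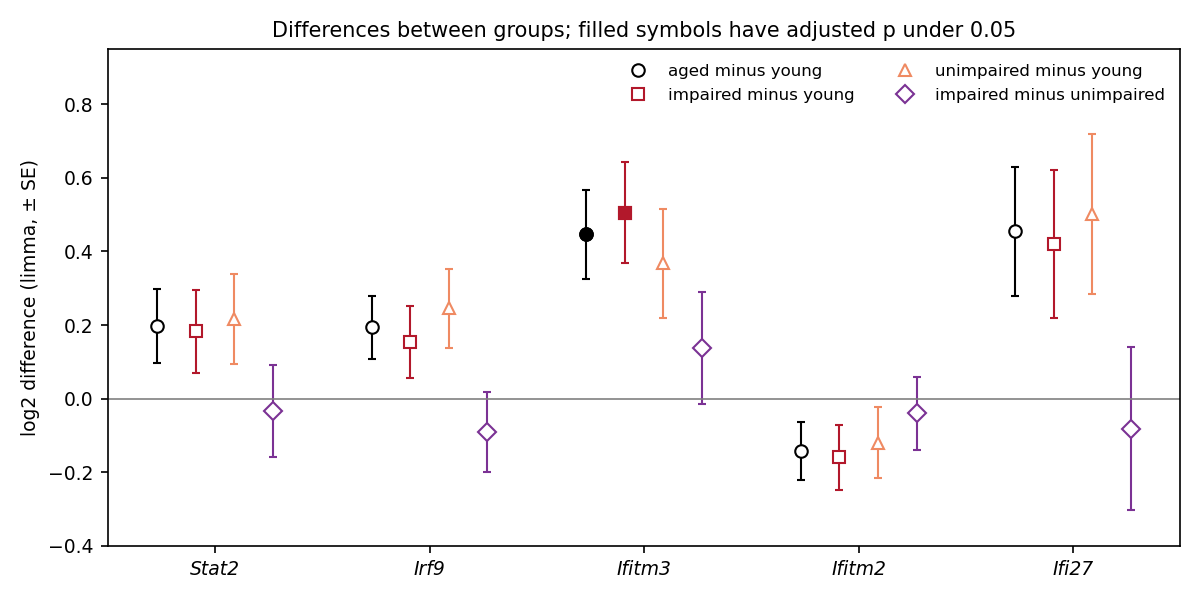
Log2 differences with SE from limma (vertical axis) for the 5 tested genes (horizontal axis) in 4 comparisons. Filled symbols have an adjusted p under 0.05, which holds for Ifitm3 in aged minus young and impaired minus young, and the impaired minus unimpaired differences all lie within 1 SE of 0.

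Ifi27 encodes a mitochondrial protein strongly induced by type I interferon in human cells. Its log2 signal was 9.99, 10.58 and 11.17 in impaired rats (lowest, median, highest), 10.27, 10.73 and 11.06 in unimpaired rats and 9.59, 9.97 and 11.16 in young rats. All 14 aged rats lay above the young median, and 5 of 9 young rats lay below every aged rat, but young replicates 7 and 3, at 11.16 and 10.88, were among the high arrays of the study. The aged minus young difference was 0.46 ± 0.18, or 1.37-fold (95% interval 1.07 to 1.76; limma adjusted p = 0.187), and impaired and unimpaired rats differed by -0.08 ± 0.22. The gene varied more between rats of a group than 98.2% of all tested genes, with a within-group SD of 0.44, against 0.30 for Ifitm3, which exceeded 93.1% of genes. Over the 23 fits that each left out 1 array, the aged minus young difference lay between 0.38 and 0.58. Its limma adjusted p lay between 0.0494 and 0.317. It was called in 1 of these fits, that without young replicate 7, where the difference was 0.58 (adjusted p = 0.0494). In 13 of 13 other settings it stayed uncalled.

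Ifitm2, the neighbour and paralog of Ifitm3, was at 4.71, 5.33 and 5.63 in impaired rats, 5.17, 5.39 and 5.46 in unimpaired rats and 5.32, 5.45 and 5.69 in young rats (lowest, median, highest). The ranges overlapped, 11 of 14 aged rats lay below the young median, and impaired replicate 3, at 4.71, stood apart from the next impaired rat at 5.28. The aged minus young difference was -0.14 ± 0.08 (limma adjusted p = 0.403), which became -0.09 without that array. The estimates for Ifitm2 and Ifitm3 thus had opposite signs. The genes are close paralogs, and whether the probes of either also bind the other transcript was not tested.

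**Figure D3:**
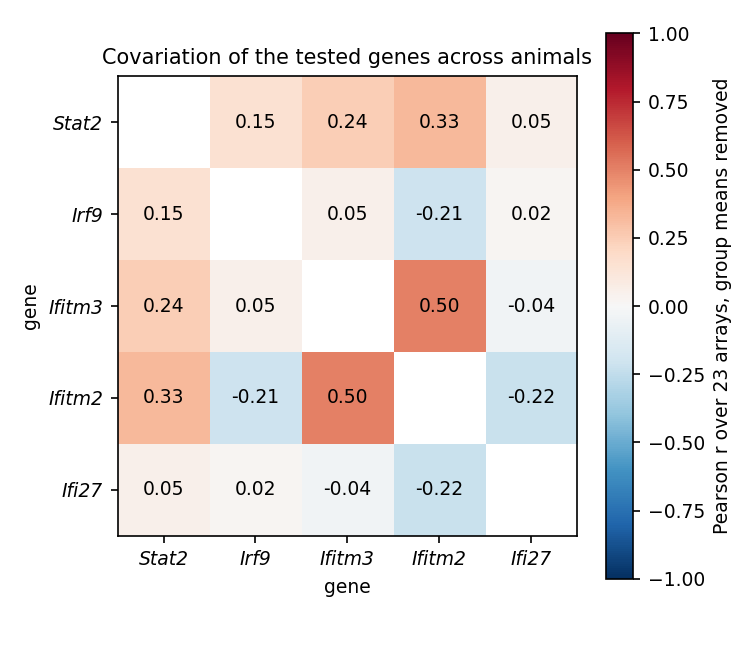
Pearson r between the 5 tested genes over 23 arrays after removing group means (colour scale from -1 to 1, genes on both axes). The highest value is 0.50, for Ifitm3 and Ifitm2, and the other pairs lie between -0.22 and 0.33.

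Over the 23 arrays, with group means removed, the median r over the 10 pairs of tested members was 0.0505. The highest was that of Ifitm3 and Ifitm2, r = 0.503 (within-group permutation p = 0.00689, adjusted over 10 pairs 0.0689) and rho = 0.435 (permutation p = 0.0454, adjusted 0.365). Without young replicates 3 and 7, the arrays farthest from the Ifitm3 median, r was 0.547, but without the 2 arrays farthest from the Ifitm2 median it was 0.333, and without impaired replicate 3 alone 0.398. Within impaired rats it was 0.938 (exact permutation p = 0.000942, n = 8, and at least 0.851 with any 1 rat left out), within unimpaired rats 0.692 (exact p = 0.117, n = 6) and within young rats 0.144 (exact p = 0.703, n = 9). The difference between the groups' r was not tested. Impaired replicate 3 was the lowest impaired rat for both genes and impaired replicate 2 the highest. Among 9075 genes, 1.21% had a higher r with Ifitm3 than Ifitm2 had.

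Stat2 and Irf9, whose products work in 1 complex, had r = 0.15 (permutation p = 0.528, adjusted 0.879) and rho = 0.0241 (permutation p = 0.917, adjusted 0.921). Without unimpaired replicate 2 and impaired replicate 6, r was -0.28. It was 0.533 when the 3 arrays least like the rest were left out and 0.421 with the mean of each gene's probe sets, and the second Irf9 probe set had r = 0.441 with Stat2, so the value depended on the arrays and probe sets used. Ifitm3 and Ifi27, the members with the largest age differences, had r = -0.0352 (permutation p = 0.89, adjusted 0.94). Of the 30 correlations within single groups, 3 had an unadjusted exact p under 0.05. They were the impaired Ifitm3 and Ifitm2 value and, in young rats, Ifi27 with Ifitm2 (r = -0.76, exact permutation p = 0.0187) and Ifitm2 with Irf9 (r = -0.715, exact permutation p = 0.0278), which was -0.455 without young replicate 4. Arrays also differed in a technical measure. The log2 difference between 3′ and 5′ control probe sets, a measure of RNA integrity and labelling, had r = 0.706 with Stat2, 0.419 with Ifitm3, 0.417 with Ifitm2, 0.235 with Ifi27 and -0.107 with Irf9. With that difference in the model, the r of Ifitm3 and Ifitm2 was 0.398 and that of Stat2 and Irf9 0.32. The r of Ifitm2 and Stat2 went from 0.327 to 0.0499, and that of Ifitm3 and Stat2 from 0.244 to -0.0803.

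The genes most like each member over the 23 arrays, of 9075, were not other members. For Ifitm3 they were Rpl5, a ribosomal protein (r = 0.753), Zfp622 (0.734) and Alkbh1, a nucleic acid demethylase (0.713), and the lowest was Abcc8, a potassium channel subunit (-0.665). For Ifi27 they were Poglut1 (0.793), the cytochrome P450 Cyp4f4 (0.775) and Uimc1 (0.724), and the lowest was Stoml1 (-0.74). Cyp4f4 was the only one of these 20 genes that also rose with age, by 0.85 (limma adjusted p = 0.00857). For Ifitm2 they were Atxn7l1 (0.769), the nucleoporin Nup43 (0.759) and the natriuretic peptide gene Nppc (0.745), of which the last pair fell to 0.322 and 0.255 when 1 array was left out, and the lowest was Btaf1 (-0.753). For Stat2 they were the myosin Myo6 (0.793), the kinase Cdk11b (0.785) and the corepressor Tle2 (0.779), and the lowest was Dnttip2 (-0.728). For Irf9 they were Rap1gds1 (0.795), Stum (0.76) and the muscarinic receptor Chrm4 (0.75), and the lowest was Fxyd7 (-0.747). These values are the extremes of many and are a description only.

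The rest of the interferon pathway was taken from 8 lists of 146 genes, of which 110 were on the array and 47 bright enough to test. Between aged and young rats 4 of 47 rose, against 3.09% of all tested genes, and 0 fell, against 0.628%. The lists' median difference was 0.075, against 0.0112 over all tested genes, and 35 of 47 (74.5%) differences lay above 0, against 56.1% of all tested genes. Impaired rats exceeded young rats in 3 of 47, against 3.09% of all genes, unimpaired rats in 1 of 47, against 0.617%, and impaired and unimpaired rats differed in 0 of 47, where 0% of all genes were called.

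**Figure D4:**
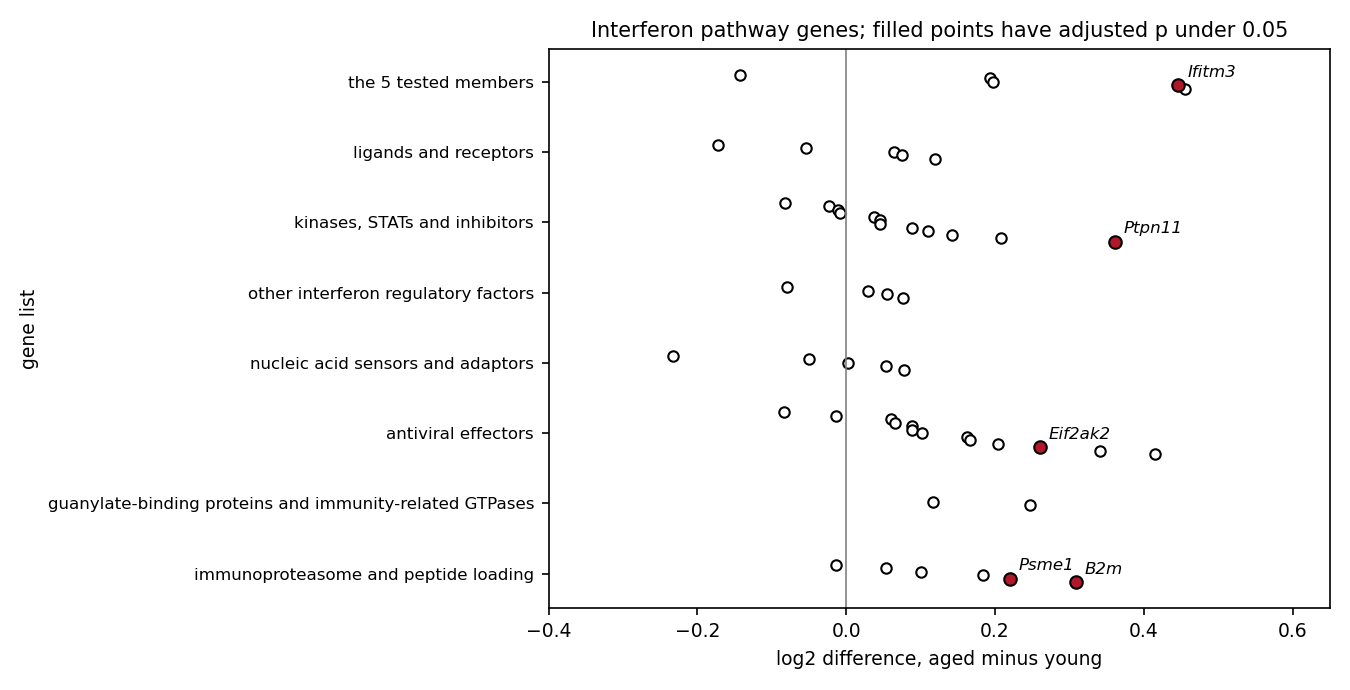
Log2 difference, aged minus young (horizontal axis), of the 5 tested members and of 47 other interferon genes by list (rows). Each point is a gene, and filled named points have an adjusted p under 0.05: Ifitm3, Ptpn11, Eif2ak2, Psme1 and B2m, all higher in aged rats.

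Ligands and receptors came first in the pathway: 0 of 5 tested genes passed. Ifngr1, a chain of the interferon gamma receptor, had a difference of 0.12 ± 0.05 (limma adjusted p = 0.247), and Ifnar2, of the type I receptor, one of -0.17 ± 0.08 (adjusted p = 0.322). Among kinases, STATs and inhibitors 1 of 12 rose, where 3.09% of all genes did. This was Ptpn11, a phosphatase with many partners besides the interferon receptors, at 11.91 ± 0.09 in impaired, 12.03 ± 0.13 in unimpaired and 11.60 ± 0.10 in young rats (SD). Its aged minus young difference was 0.36 ± 0.05 (adjusted p = 4.32e-05), and it was the gene called between unimpaired and young rats too, at 0.43 ± 0.06 (adjusted p = 0.000214). The list of other interferon regulatory factors also held binding proteins of Irf2. Of its tested genes 0 of 4 passed (the factors Irf2 and Irf3 and the binding proteins Irf2bp1 and Irf2bp2, between -0.08 and 0.08). Of the nucleic acid sensors and adaptors 0 of 5 passed. There the adaptor Traf3 came nearest, at -0.23 ± 0.08 (adjusted p = 0.0944).

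Of the antiviral effectors 1 of 13 rose (3.09% of all genes): Eif2ak2, a kinase that halts translation on binding double-stranded RNA, by 0.26 ± 0.06 (limma adjusted p = 0.0232), a call lost without young replicate 2 or 5. Neither of the 2 tested immunity-related GTPases passed, with Irgm2 at 0.12 ± 0.06 (adjusted p = 0.318) and Irgm at 0.25 ± 0.14 (adjusted p = 0.422). Of the genes for the immunoproteasome and peptide loading 2 of 6 rose, again against 3.09% of all genes. B2m, the small subunit shared by class I antigen-presenting molecules, averaged 12.46 ± 0.11 in impaired, 12.38 ± 0.10 in unimpaired and 12.12 ± 0.14 in young rats (SD), with a difference of 0.31 ± 0.05 (adjusted p = 0.000719). Psme1, a subunit of the proteasome activator, had a difference of 0.22 ± 0.06 (adjusted p = 0.0269), lost without young replicate 2 or 6. The 63 dim genes of the lists included Isg15, Irf7, Mx1, Ifit2 and all 7 interferon-induced chemokines on the array. Of their 77 probe sets, 71 were over 4 on no array.

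Across rats, some listed genes followed single members. With group means removed, B2m had r = 0.621 with Ifitm3, the highest of the 47 and at least 0.552 with any 1 array left out. Of all genes 0.253% had a higher r with Ifitm3 than B2m had. B2m was the 1 of 47 (2.13%) with an r over 0.5 with Ifitm3, against 1.29% of all genes. For Stat2 the highest of the 47 were Irgm2 at r = 0.735, Irf3 at 0.671 and Herc6 at 0.619, and 6 of 47 (12.8%) had an r over 0.5 with Stat2, against 7.4% of all genes. The median r with Stat2 was 0.114 over the 47 genes and 0.122 over all genes, and the share of all genes with a higher r was 0.0882% for Irgm2, 0.804% for Irf3 and 1.99% for Herc6. Irgm2, Irf3 and Herc6 were picked for their r with Stat2, and B2m for its r with Ifitm3. Rats in which such a gene and its member are both high are therefore no separate evidence. Herc6 is an interferon-induced ubiquitin ligase in mice. The 3 rats with the highest Stat2 on its brighter probe set were also the 3 with the highest Irgm2. Irgm2 was at 6.36 in impaired replicate 6, 6.30 in impaired replicate 7 and 6.28 in unimpaired replicate 2. The young rats lay between 5.84 and 6.01 for Irgm2. On the second Stat2 probe set those 3 aged rats were at 6.03, 6.05 and 6.32, in the same order. Young replicate 9 was at 6.15 there, so only unimpaired replicate 2 stood out on that probe set. Herc6 was at 5.92 and 6.03 in impaired replicates 6 and 7 and at most 5.08 in every other rat, but at 4.97 in unimpaired replicate 2. The log2 3′ to 5′ control difference of these rats was 1.47, 1.49 and 1.47, near the top of the range over all arrays, and its part was not tested. Without impaired replicate 6 and unimpaired replicate 2, r with Stat2 was 0.507 for Irgm2 and 0.466 for Herc6. In the same 3 rats, impaired replicates 6 and 7 and unimpaired replicate 2, the other members were high in some cases and not in others. Irf9 was 8.65, 7.86 and 8.50 on its brighter probe set, which are the highest level of all arrays, the lowest impaired one and the third highest of all. On its second probe set it was 6.24, 6.07 and 6.76, the last being the highest of all. Ifitm3 was 7.81, 7.58 and 7.60, with the first being the second highest of all arrays. Ifi27 was 10.80, 11.17 and 10.63, with the second being the highest of all, and Ifitm2 was 5.58, 5.28 and 5.44.

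**Figure D5:**
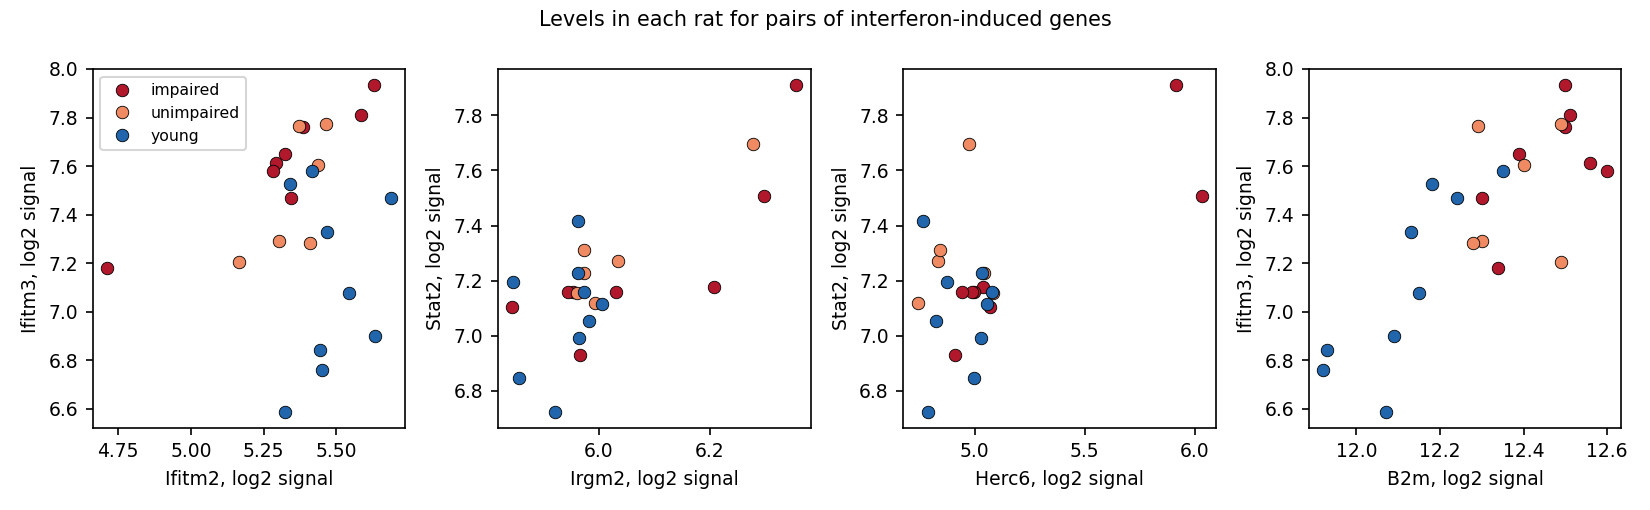
Log2 signals of pairs of genes in each rat (points, coloured by group): Ifitm3 against Ifitm2, Stat2 against Irgm2, Stat2 against Herc6 and Ifitm3 against B2m. Stat2 is shown by its brighter probe set. In the second panel 3 aged rats hold the highest values of both genes, and in the fourth the lowest Ifitm3 values are those of young rats.

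Levels of cell type markers moved with some of these results. Microglial and macrophage markers were higher in aged rats for 9 of 14 tested genes (of 19 on the array), against 3.09% of all genes, with a median difference of 0.36, and their mean level ranged from 8.04 to 8.43 in impaired, 8.02 to 8.33 in unimpaired and 7.52 to 8.04 in young rats. Its r with Ifitm3 was 0.555 within groups, against 0.177 with Ifi27, 0.14 with Ifitm2, 0.106 with Stat2 and -0.324 with Irf9. Endothelial markers were lower in aged rats for 4 of 15 tested genes, against 0.628% of all genes, with mean levels of 7.52 to 8.02 in impaired, 7.52 to 7.74 in unimpaired and 7.55 to 7.96 in young rats, and an r of 0.595 with Stat2 and 0.31 with Ifitm3. Of these 4 calls, those of Sox18 and Ramp2 were lost in 18 and 16 of the 23 fits that left out 1 array. Astrocyte markers were higher for 2 of 10 tested genes, against 3.09% of all genes, with Gfap at 0.51 ± 0.07 (limma adjusted p = 0.000205). Their mean level had r = 0.431 with Stat2. Pericyte and smooth muscle markers were lower for 1 of 6, against 0.628% of all genes, with r = 0.528 with Stat2. This gene was Myh11, whose call was lost in 10 of the 23 fits that left out 1 array and without the filter on dim genes. Of 5 meningeal and fibroblast markers 2 were higher, against 3.09% of all genes, and 2 lower, against 0.628%. The higher were Ptgds at 0.56 ± 0.10 (limma adjusted p = 0.000929) and Aebp1 at 0.32 ± 0.08 (adjusted p = 0.0328). The Aebp1 call was lost in 4 of the 23 fits that left out 1 array. The lower were Igf2 at -0.84 ± 0.16 (adjusted p = 0.00249) and Dcn at -0.71 ± 0.15 (adjusted p = 0.00857). The mean level of the 5 markers had r = 0.43 with Ifitm2 and -0.437 with Irf9. Ttr, the 1 tested marker of choroid plexus and ependyma, had r = 0.457 with Stat2 and ranged from 4.74 to 9.50. Stat2 also had r = 0.706 with the 3′ to 5′ control difference, and 7.4% of all genes had an r over 0.5 with Stat2. The part of that technical measure in the markers' r with Stat2 was not tested. The part of these cell types in the members' differences was not tested either, and in bulk tissue more cells of a type and more RNA per cell cannot be told apart. The 6 tested markers of CA1 pyramidal neurons, of 6 on the array, averaged 11.55 in impaired, 11.77 in unimpaired and 11.69 in young rats, with 0 called. Their mean level had r = 0.442 with Irf9, and between -0.22 and 0.0458 with the other tested members. Its part in the level of Irf9 was not tested. Array medians of log2 signal spanned 4.20 to 4.28, and each array correlated with the rest at a median of 0.990 to 0.994. The number of arrays limits the precision of every comparison.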

How the data were processed

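The authors deposited log2 signals. Per the submitters' processing notes these came from GCRMA, whose version and settings are not given in the sources used here. Of 24 sample columns 1 was blank, and 23 arrays were used without further scaling. Groups came from the sample titles, and no batch or date was given. Of 31099 probe sets, 20832 had exactly 1 gene symbol in the platform annotation, 436 several and 9831 none. A gene was represented by the brightest of its such probe sets that exceeded 4 on 6 or more arrays, giving 9076 genes. The model was fitted in R 4.3.3 by limma 3.58.1, with aged groups weighted by their arrays, and Benjamini-Hochberg adjustment over all genes in each of 4 comparisons. Correlations used values minus group means, with 100000 permutations within groups or exact permutation within a group, two-sided (Python 3.11.15, numpy 2.4.6, scipy 1.17.1). Both steps were tested on simulated data. Promoter sequences are those of RefSeq on GRCr8.

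The members and gene lists were chosen with earlier results of these data known. Named genes were all members, of each other interferon list the called genes or otherwise up to 4 with the smallest p, and for each member the 3 genes of highest and the 1 of lowest correlation. Alternatives covered filter, probe set choice, scaling, weights, moderation, a control-probe covariate, replicate block, threshold and left-out arrays.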

Additional observations from a re-analysis of the deposited data

Results flagged for a closer look

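In 7 of 30 groups of arrays (10 probe sets in 3 groups), 1 array lay farther from the others than Dixon's 95% limit allows. The nominal rate of about 1 in 20 holds for independent groups of normally distributed values. These groups share rats and include dim probe sets, and the share over all probe sets was not counted. The 7 are therefore a list of arrays and no sign of an excess. For Ifitm2, impaired replicate 3 was low at 4.71, against 5.28 for the next. For Stat2, unimpaired replicate 2 was high on both probe sets, at 7.70 and 6.32, and impaired replicate 5 was low at 5.97 on the dimmer one, where the group spans little. On the second Irf9 probe set young replicate 4 was low at 5.32. Gbp2, dim on all 23 arrays, was high at 3.83 in impaired replicate 2 and at 3.70 in young replicate 5.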

How the results depend on the processing

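Over 13 other settings and 23 left-out arrays, 685 of 720 log2 differences of the tested members in the 4 comparisons kept direction and side of the threshold. Most of these were not called in the main fit, so this count says little about the calls. Of the others, 27 lost a call, 1 gained one and 7 reversed. The lost calls were all those of Ifitm3. Between aged and young rats its call was lost in 12 of 23 left-out fits and 2 of 13 settings. Between impaired and young rats it was lost in 10 of 23 and 3 of 13. The count of members called between aged and young rats, 1, ranged from 0 to 1 over the 23 fits that left out 1 array, as did that between impaired and young rats, and both were 0 without the filter. That of impaired and young rats was also 0 with only those groups in the fit (Ifitm3 adjusted p = 0.0644). The labels do not say whether replicate numbers pair the samples. Correlations of deviations in 20 same-numbered pairs lay between -0.267 and 0.116. Pairs with different numbers were not compared, so these values do not settle whether arrays were handled in sets. With the replicate block both counts were 0, with Ifitm3 at 0.45 (adjusted p = 0.121) and 0.50 (adjusted p = 0.123). Under the threshold of 0.1 the pathway genes called were 5 between impaired and young and 3 between unimpaired and young rats. Small impaired minus unimpaired differences reversed: with the 3′ to 5′ covariate Ifitm2 to 0.0162 and Stat2 to 0.0899, with the replicate block Ifi27 to 0.0336, and with 1 array left out Ifi27 ranged from -0.168 to 0.00934, Ifitm2 from -0.0843 to 0.0467 and Stat2 from -0.126 to 0.0465. The median r over member pairs was 0.227 without removing group means, -0.0179 with the 3′ to 5′ covariate and between -0.0224 and 0.119 with 1 array left out. The cause of these changes was not tested. Signal near background sets the limit for Irf1, Bst2 and Gbp2.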
